A study of Mus musculus with 16 samples.

Results

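In control mouse embryos at the late 2-cell stage, the positions of 2 histone modifications, H3K27ac and H3K4me3, were compared with each other. Each modification was represented by a single list of peaks, which are stretches of the genome where the authors called the mark. All peaks of both lists on chromosomes 1 to 19 were taken, 73320 for H3K27ac and 83220 for H3K4me3, together 156540 of the 372612 peaks in the 4 lists of the series. The embryos had been injected with water at the zygote stage and collected 36 h after fertilization, and they carried no Hdac1 mutant mRNA, which the other group of the series received. After removal of the zona pellucida, native chromatin was digested with micrococcal nuclease and immunoprecipitated (ULI-NChIP-seq, a ChIP-seq variant for few cells). Each mark had 2 immunoprecipitation and 2 input libraries and 1 list, so no value below has a replicate error, no test between groups was possible and the depth is unknown. Intervals are 95% Wilson intervals and cover counting error only. The labels give neither the strain of the embryos nor the number in each library.

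H3K27ac is an acetyl group on a lysine of histone H3 that is placed by Ep300 and Crebbp, removed by deacetylases such as Hdac1 and Hdac2, and found at active promoters and enhancers. H3K4me3 is a trimethyl mark written by the Set1 and Mll (Kmt2) complexes, which are drawn to unmethylated CpG islands, so that it marks most CpG-rich promoters whether or not they are transcribed. In the mouse, the late 2-cell embryo has just passed the major wave of zygotic genome activation, and broad domains of H3K4me3 inherited from the oocyte are being replaced by narrower peaks at promoters.

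The 4 combinations of marks are shown first by the DNA just before the start of 6 genes, 250 bases each, read from the RefSeq promoter table of GRCm38.p6. Capitals mark CpG dinucleotides, and each sequence is written 5′ to 3′ on the strand of its gene. The sequences show how these promoters with H3K4me3 differ in CpG content from those without it, over a range of C+G content.
Ncl: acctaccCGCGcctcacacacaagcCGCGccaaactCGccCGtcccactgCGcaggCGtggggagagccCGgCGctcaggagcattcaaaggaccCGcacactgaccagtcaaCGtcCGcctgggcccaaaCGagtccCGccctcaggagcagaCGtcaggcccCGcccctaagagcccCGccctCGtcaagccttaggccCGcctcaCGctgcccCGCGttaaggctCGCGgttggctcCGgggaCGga
Rpl4: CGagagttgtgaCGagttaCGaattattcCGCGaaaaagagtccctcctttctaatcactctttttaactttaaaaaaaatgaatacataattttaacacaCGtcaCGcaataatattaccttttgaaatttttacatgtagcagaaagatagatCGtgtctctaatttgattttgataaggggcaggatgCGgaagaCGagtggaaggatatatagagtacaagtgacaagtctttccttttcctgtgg
Sox2: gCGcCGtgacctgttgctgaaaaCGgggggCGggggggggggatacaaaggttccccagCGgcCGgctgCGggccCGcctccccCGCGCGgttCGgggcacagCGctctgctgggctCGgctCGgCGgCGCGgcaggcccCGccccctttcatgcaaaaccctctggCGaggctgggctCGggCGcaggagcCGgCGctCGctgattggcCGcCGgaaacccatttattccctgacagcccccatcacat
Cdx2: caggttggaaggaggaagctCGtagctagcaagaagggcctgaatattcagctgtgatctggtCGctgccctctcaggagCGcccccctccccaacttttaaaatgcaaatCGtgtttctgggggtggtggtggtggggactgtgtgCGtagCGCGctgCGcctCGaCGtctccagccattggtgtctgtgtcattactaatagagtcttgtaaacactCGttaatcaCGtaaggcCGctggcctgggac
Zscan4c: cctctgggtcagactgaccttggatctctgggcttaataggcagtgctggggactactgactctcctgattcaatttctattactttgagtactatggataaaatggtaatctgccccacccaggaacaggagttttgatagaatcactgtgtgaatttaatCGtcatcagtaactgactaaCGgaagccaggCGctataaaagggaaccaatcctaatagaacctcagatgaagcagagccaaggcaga
Alb: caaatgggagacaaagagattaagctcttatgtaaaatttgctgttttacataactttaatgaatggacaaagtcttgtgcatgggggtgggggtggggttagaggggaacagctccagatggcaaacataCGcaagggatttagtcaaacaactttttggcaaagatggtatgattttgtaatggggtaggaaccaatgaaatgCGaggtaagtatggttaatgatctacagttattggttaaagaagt

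Ncl, which encodes the nucleolar protein nucleolin, and Rpl4, which encodes a protein of the large ribosomal subunit, carried both marks at their starts. The Ncl sequence lies at chr1:86359456-86359705 on the minus strand and holds 27 CpG, and the Rpl4 sequence lies at chr9:64173137-64173386 on the plus strand and holds 10. Sox2, a transcription factor of the pluripotent inner cell mass, and Cdx2, a transcription factor of the trophectoderm, carried H3K4me3 alone. The Sox2 sequence (chr3:34649745-34649994, plus strand) holds 27 CpG, the same number as Ncl, and the Cdx2 sequence (chr5:147307250-147307499, minus strand) holds 13. Zscan4c, one of a cluster of near-identical 2-cell genes, carried H3K27ac alone, and its sequence (chr7:11005495-11005744, plus strand) holds 3 CpG. Alb, the gene of serum albumin, carried neither mark, and its sequence (chr5:90460620-90460869, plus strand) holds 2 CpG. Reads from Zscan4c and its copies may not have been told apart when they were placed, so its state is uncertain.

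Both marks covered similar amounts of the genome. H3K27ac peaks covered 9.83% and H3K4me3 peaks 10.03% of the 2461 Mb of chromosomes 1 to 19. The median H3K27ac peak was 1205 bp wide and the widest 102512 bp. The median H3K4me3 peak was 1695 bp and the widest 82762 bp. Both marks lay on the same base over 130.9 Mb, or 5.32% of the chromosomes, 5.40 times the 0.985% that the product of the covered shares gives. This was 54.1% of the bases under H3K27ac and 53.04% of the bases under H3K4me3. On single chromosomes the doubly marked share ran from 3.32% on chromosome 14 to 11.5% on chromosome 11, and its ratio to the product from 3.36 on chromosome 11 to 6.72 on chromosome 14. Chromosome 11 stood apart from the others in coverage, with 19.02% of it under H3K27ac and 17.96% under H3K4me3, against medians over the chromosomes of 9.20% and 9.68%.

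At gene starts the marks differed more than their similar coverage would show. A protein-coding gene was given a mark when a peak of it lay within 2 kb of any listed start. Of 20665 protein-coding genes, 16457 had a listed start. Both marks were present at 7406 of these (45%), H3K4me3 alone at 4739 (28.8%), H3K27ac alone at 507 (3.08%) and neither at 3805 (23.1%). H3K4me3 was thus at 73.8% of the starts and H3K27ac at 48.1%. An H3K27ac start nearly always carried H3K4me3 too (93.6%, 93.03 to 94.1), while a start with H3K4me3 carried H3K27ac in 61.0% of cases (60.1 to 61.8).

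The same windows moved along the chromosomes by 10, 20 or 50 kb to either side gave another balance. Both marks were then found in 27.3% to 31.98% of windows, H3K4me3 alone in 12.2% to 13.98%, H3K27ac alone in 10.1% to 11.8% and neither in 43.9% to 48.98%. Any H3K4me3 was found in 39.8% to 45.96% of the moved windows, against 73.8% in place. For H3K27ac the rise was smaller, from between 38.2% and 42.1% to 48.1%. Among windows with H3K4me3, the share that also held H3K27ac was lower at the starts (61.0%) than away from them (67.9% to 69.99%). Among windows with H3K27ac, the share that also held H3K4me3 was higher at the starts (93.6% against 69.9% to 75.9%).

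Base by base, H3K4me3 formed a sharp summit at the start and H3K27ac a low one. The start base itself lay under H3K4me3 in 67.7% of genes, under H3K27ac in 36.4% and under both in 34.6%. At 2 kb before the start the shares had fallen to 38.8% and 28.8%, and at 2 kb after it to 39.8% and 27.6%. Beyond 20 kb the marks ran level, between 21.2% and 25.3% for H3K4me3 and between 22.5% and 25.6% for H3K27ac. Upstream of genes, from 20 to 50 kb, the mean was 24.2% for H3K4me3 and 24.5% for H3K27ac. Downstream, over the same distance, H3K4me3 was at 21.8% and H3K27ac at 23.2%.

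**Figure D1:**
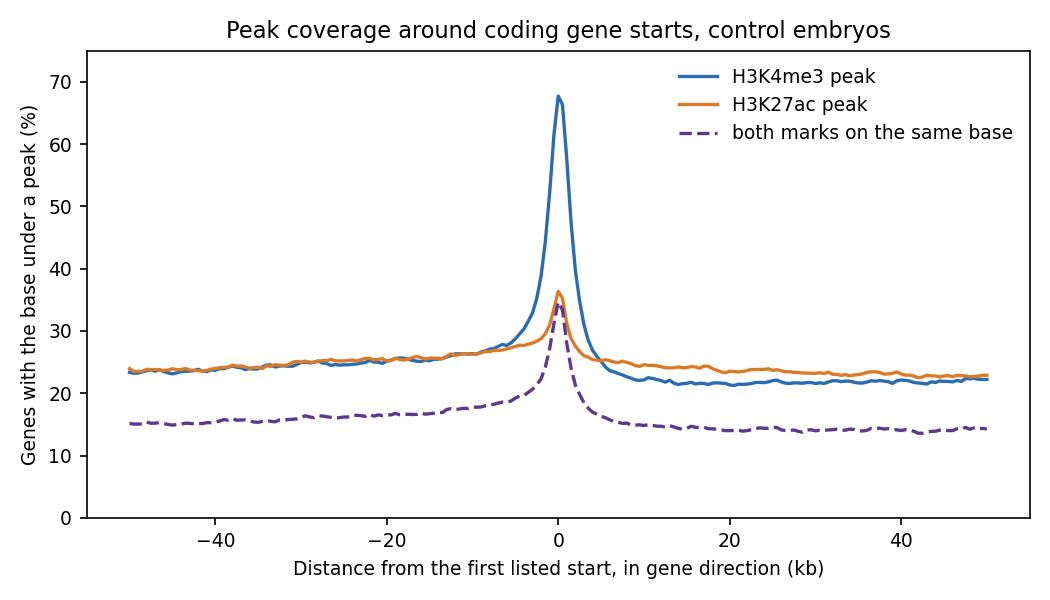
Share of 16457 protein-coding genes (vertical axis, %) whose base at each distance from the first listed start (horizontal axis, kb, in the direction of the gene) lay under an H3K4me3 peak (blue), an H3K27ac peak (orange) or both (dashed). H3K4me3 rises to 67.7% at the start and H3K27ac to 36.4%, and beyond 20 kb both lie between 21.2% and 25.6%.

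Housekeeping genes carried both marks almost without exception. All 55 genes of cytosolic ribosomal proteins with a listed start had both, against 45% of all coding genes. Counted from both ends of the gene, so that genes without a listed start could enter, it was 76 of 76, against 52.4% of all coding genes. The median widest peak at their starts was 12312 bp for H3K4me3 and 16789 bp for H3K27ac, against 4681 bp and 7009 bp over all genes with the mark. At Rpl13a, of the large ribosomal subunit, the H3K4me3 peak reached 65252 bp and the H3K27ac peak 30016 bp. At Rpl27a the H3K4me3 peak was 3177 bp, the narrowest of the group, and the H3K27ac peak 9757 bp. Rps6, a protein of the small subunit, lay under an H3K27ac peak of 21958 bp (chr4:86850610-86872567) that enclosed an H3K4me3 peak of 12687 bp (chr4:86850724-86863410).

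The nucleolar genes of ribosome biogenesis followed, with both marks at 37 of 39 starts and H3K4me3 alone at 2. The 2 were Polr1a, the largest subunit of RNA polymerase I, with an H3K4me3 peak of 4434 bp, and Emg1, an rRNA methyltransferase, with a peak of 10803 bp. At Ncl the H3K4me3 peak was 7128 bp and the H3K27ac peak 4857 bp. At Wdr43, a factor of the small subunit processome, they were 38446 bp and 43982 bp. Splicing factors and hnRNPs had both marks at 37 of 40 starts. The exceptions were Hnrnpu, with an H3K4me3 peak of 9949 bp, Prpf6 with 5703 bp and Sf3b2 with 10208 bp, each with no H3K27ac within 2 kb. Proteasome subunits had both marks at 23 of 25 starts, and Psma5 and Psmc6 had H3K4me3 alone in peaks of 4098 bp and 3139 bp. Over all coding starts the share with both marks was 45% and with H3K4me3 alone 28.8%. No start of the ribosomal, nucleolar, splicing and proteasome groups carried H3K27ac alone (3.08% of all) or lacked both marks (23.1% of all).

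Chromatin regulators looked much like the housekeeping groups. Of 48 starts, 44 carried both marks (91.7%, against 45% of all coding genes) and 4 carried H3K4me3 alone (8.33% against 28.8%), and the median widest H3K27ac peak of the 44 was 15987 bp, against 7009 bp over all genes with the mark. Among the enzymes that write or erase these marks, Ep300, an acetyltransferase of H3K27, had an H3K27ac peak of 26504 bp and an H3K4me3 peak of 6731 bp. Kdm5b, a demethylase of H3K4me3, had an H3K4me3 domain of 32321 bp that overlapped an H3K27ac peak of 16237 bp. Hdac2, the deacetylase closest to Hdac1, carried both marks in narrow peaks, of 1171 bp for H3K27ac and 1739 bp for H3K4me3, and it kept H3K4me3 alone when only the wider 50% of each list was used. Hdac1 had no listed start, and by its gene ends it carried both. H3K4me3 alone was found at Crebbp, the relative of Ep300, in a peak of 2119 bp. The other 3 were Tet3, the oxidase of methylated cytosine supplied by the oocyte, with 2812 bp, Sin3b, a scaffold of the Hdac1 and Hdac2 complex, with 1467 bp, and Ring1, of Polycomb complex PRC1, with 3429 bp.

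**Figure D2:**
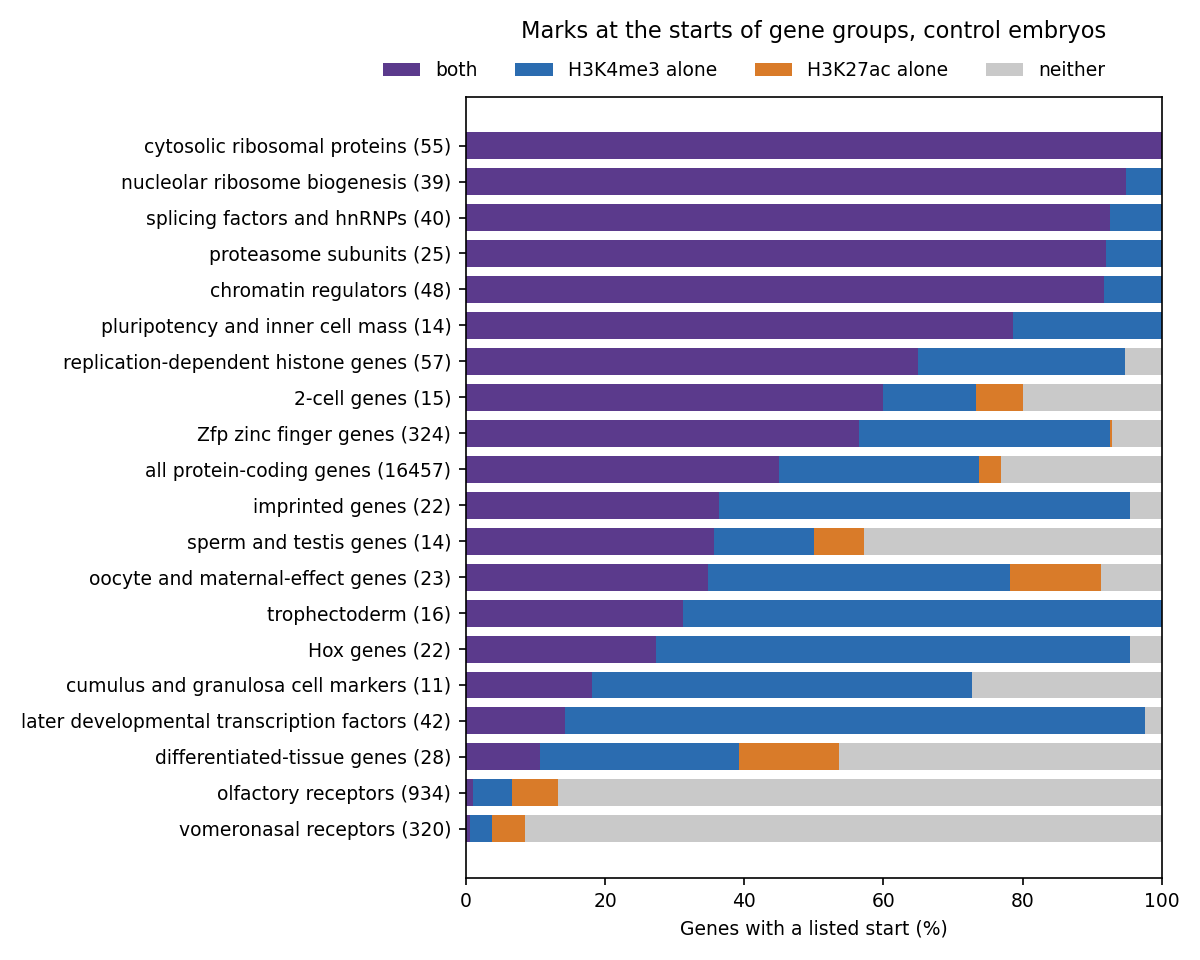
Share of the genes of each group (horizontal axis, % of genes with a listed start, number in brackets) with both marks, H3K4me3 alone, H3K27ac alone or neither within 2 kb of a start. Groups are ordered by the share with both, from all 55 ribosomal protein genes to 2 of 320 vomeronasal receptors, and all coding genes (45% both) stand among them.

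The genes of the 2-cell stage itself were divided. Of 15 with a listed start, 9 carried both marks (60%, against 45% of all coding genes), 2 H3K4me3 alone, 1 H3K27ac alone and 3 neither (20% against 23.1%). By gene ends, 17 of 22 carried both (77.3% against 52.4%) and none lacked both. Zfp352, a zinc finger gene switched on at this stage, had an H3K27ac peak of 9532 bp and an H3K4me3 peak of 10658 bp, and the Krüppel-like factor gene Klf17 had 19010 bp and 13188 bp. Zscan4d had 6505 bp of H3K27ac and 6058 bp of H3K4me3, while Zscan4c had an H3K27ac peak of 1679 bp and no H3K4me3 within 2 kb. The start base of Zscan4d lay under H3K27ac and not under H3K4me3. Zscan4b and Zscan4f, of the same cluster, and Usp17ld, a deubiquitinase gene, had neither mark at their starts. H3K4me3 alone was found at Duxf3, the Dux gene that switches on 2-cell genes, in a peak of 1596 bp, and at the homeobox gene Obox5 in a peak of 1263 bp. At Obox3 both marks lay in the window, with widest peaks of 2550 bp for H3K27ac and 1382 bp for H3K4me3. H3K27ac covered 3278 bp of the window, and neither mark covered the start base. Many of these genes have near-identical copies, and how the authors placed reads among the copies is not given in the sources used here.

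Oocyte and maternal-effect genes, whose RNA is mostly laid down before fertilization, were divided among all 4 states. Of 23, 10 carried H3K4me3 alone (43.5%, against 28.8% of all coding genes), 8 both (34.8% against 45%), 3 H3K27ac alone (13.04% against 3.08%) and 2 neither (8.70% against 23.1%). By gene ends, 16 of 30 carried both, or 53.3% against 52.4% of all. Those with H3K4me3 alone included the ovarian transcription factors Nobox (4435 bp), Figla (3037 bp), Sohlh1 (2340 bp), Sohlh2 (3742 bp) and Lhx8 (6873 bp). Kit, the receptor of oocytes and germ cells, had H3K4me3 alone in a peak of 4850 bp. Of the subcortical maternal complex, both marks were found at Khdc3, with 8367 bp of H3K4me3 and 32907 bp of H3K27ac, at Ooep, with 11677 bp and 10114 bp, and at Tle6, with 5559 bp and 7928 bp, while Nlrp5, another core member, had neither mark. The zona pellucida gene Zp3 also had both, with H3K4me3 over 12299 bp and H3K27ac over 10408 bp. H3K27ac alone was found at Btg4, an adaptor of maternal mRNA decay, in a peak of 5091 bp, at Oosp1 in one of 4045 bp and at Nlrp2 in one of 1161 bp. Besides Nlrp5, Nlrp4f had neither mark.

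Genes of the first lineages differed between the inner cell mass and the trophectoderm lists. Of 14 genes of pluripotency and the inner cell mass, 11 had both marks (78.6%, against 45% of all coding genes) and 3 had H3K4me3 alone (21.4% against 28.8%). Pou5f1, the core factor of pluripotency, had an H3K27ac peak of 25293 bp and an H3K4me3 peak of 12174 bp, and Nanog had 8506 bp and 5556 bp. The H3K4me3 peak of Nanog ended before the gene and did not cover its start base. Nr5a2, a nuclear receptor active at this stage, had 10740 bp and 12335 bp. Sox2 had 3129 bp of H3K4me3 and no H3K27ac, and so did Zfp42 with 6465 bp and Pdgfra, a gene of the primitive endoderm, with 12349 bp. Of 16 trophectoderm genes, 5 had both marks (31.2% against 45%) and 11 had H3K4me3 alone (68.8% against 28.8%). The 5 were Elf5, Krt18, Lats1, Wwtr1 and Yap1, and the H3K27ac peak at Krt18 was only 220 bp wide. Among the 11 were Cdx2, with an H3K4me3 peak of 9565 bp, Gata3 with 12200 bp, Eomes with 6087 bp and Tfap2a with 11318 bp. Of the Hippo pathway genes on the list, Lats1, Wwtr1 and Yap1 had both marks and the kinase gene Lats2 had H3K4me3 alone, over 5822 bp. By gene ends, 12 of 20 trophectoderm genes (60%) and 15 of 22 of the inner cell mass list (68.2%) carried both, against 52.4% of all, so the difference between these lists was smaller under that window, and Cdx2 and Gata3 were among those with both.

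Patterning genes of later stages carried H3K4me3 at nearly every start and H3K27ac less often than coding genes as a whole. Of 42 later developmental transcription factors, 35 had H3K4me3 alone (83.3%, against 28.8% of all coding genes). Both marks were at 6 (14.3% against 45%), and Pax8 had neither (2.38% against 23.1%). Their H3K4me3 peaks had a median width of 3974 bp, near the 4681 bp over all genes. Pax6, of the eye and brain, had an H3K4me3 peak of 11668 bp, and Neurog2, of neurons, had one of 3919 bp. The 6 with both, Emx2, Foxc1, Isl1, Lhx1, Neurog1 and Nkx2-5, held narrow H3K27ac, between 263 bp at Emx2 and 1504 bp at Foxc1. Of 22 Hox genes, 15 had H3K4me3 alone (68.2% against 28.8%), 6 had both (27.3% against 45%) and Hoxd4 had neither (4.55% against 23.1%). The 6 were Hoxa7 with an H3K27ac peak of 669 bp, Hoxa13 with 2109 bp, Hoxb1 with 9268 bp, Hoxb8 with 3895 bp, Hoxc4 with 541 bp and Hoxd11 with 366 bp. By gene ends, 30 of 39 Hox genes (76.9%) and 42 of 59 later factors (71.2%) carried H3K4me3 alone, against 24% of all coding genes.

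The surroundings of single genes varied. Within 50 kb of Pou5f1 lay 10 H3K27ac and 8 H3K4me3 peaks. At Kit, 7 H3K4me3 peaks and a single H3K27ac peak lay within 50 kb, the latter from 9614 to 10893 bp after the start. At Hoxd13 there were 10 H3K4me3 peaks and 2 of H3K27ac, one of them the peak of 366 bp at the neighbour Hoxd11. Pax6 had H3K27ac just outside its window, from -19265 to -3565 bp of the first listed start, and 6 H3K27ac peaks within 50 kb. Gata3 had 5, the nearest 17673 bp after the start, against 8 at Ep300. Alb had 3 short H3K27ac peaks and 5 H3K4me3 peaks within 50 kb and none at its start.

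**Figure D3:**
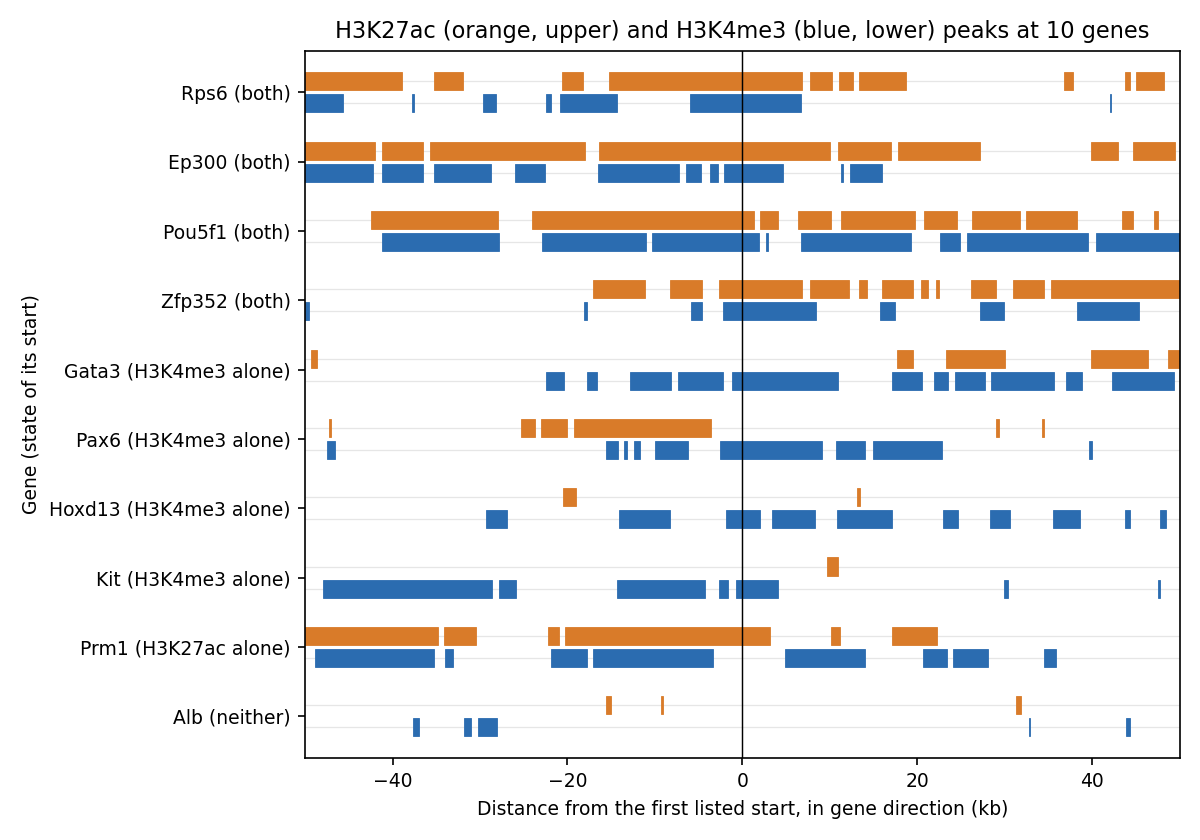
Positions of H3K27ac peaks (orange, upper line of each gene) and H3K4me3 peaks (blue, lower line) within 50 kb of the first listed start of 10 genes, in kb in the direction of the gene. The vertical line is the start: peaks of both colours cross it at Rps6, Ep300, Pou5f1 and Zfp352, blue alone at Gata3, Pax6, Hoxd13 and Kit, orange alone at Prm1 and neither at Alb.

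Receptor families were mostly bare, and genes of differentiated tissues were spread over the states. Of 28 genes of differentiated tissues, 13 had neither mark (46.4%, against 23.1% of all coding genes), 8 had H3K4me3 alone (28.6% against 28.8%), 4 had H3K27ac alone (14.3% against 3.08%) and 3 had both (10.7% against 45%). The 4 were Afp, Cd68, Lyz2 and Tnnt2, with H3K27ac peaks of 503, 13576, 187 and 169 bp. The 3 with both were Cd79a, Krt10 and Vil1. By gene ends, 13 of 39 had neither mark (33.3% against 19.7% of all) and 13 had both (33.3% against 52.4%). Of 934 olfactory receptor genes, 810 (86.7%) had neither mark, 53 had H3K4me3 alone, 62 had H3K27ac alone and 9 had both, and of 320 vomeronasal receptor genes these counts were 293, 10, 15 and 2. In these receptor families H3K27ac alone thus stood near H3K4me3 alone, at 6.64% and 5.67% of olfactory receptor starts, whereas over all coding genes the shares were 3.08% and 28.8%. The peaks there were narrow, with a median of 641 bp for H3K27ac and 1124 bp for H3K4me3 at olfactory receptors.

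Of the cumulus and granulosa cell markers, which stand for the somatic cells around the egg, 6 of 11 had H3K4me3 alone (54.5%, against 28.8% of all coding genes), 3 neither (27.3% against 23.1%) and 2 both (18.2% against 45%). The 2 were Ptgs2, with an H3K27ac peak of 579 bp, and Amhr2, whose H3K27ac peak was 34690 bp wide. By gene ends, 6 of 16 markers had H3K4me3 alone (37.5% against 24% of all), 5 both (31.25% against 52.4%) and 5 neither (31.25% against 19.7%). Of 14 sperm and testis genes, 6 had neither mark (42.9%, against 23.1% of all coding genes), 5 had both (35.7% against 45%), 2 had H3K4me3 alone and Prm1 had H3K27ac alone. By gene ends, neither mark was at 22.2% of them and at 19.7% of all. The protamine cluster shared its peaks: an H3K27ac peak of 23419 bp lay within 2 kb of the starts of both Prm1 and Prm2, and an H3K4me3 peak of 9155 bp lay within 2 kb of Prm2 and Tnp2. The part of chromatin from other cells in these states was not tested.

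Zfp zinc finger, replication-dependent histone and imprinted genes lay between the housekeeping and the receptor groups in the share with both marks. Among 324 Zfp zinc finger genes, 183 had both marks (56.5%, against 45% of all coding genes), 117 H3K4me3 alone (36.1% against 28.8%), 23 neither (7.10% against 23.1%) and 1, Zfp811, H3K27ac alone. Of 57 replication-dependent histone genes, 37 had both (64.9%), 17 H3K4me3 alone (29.8%, near the 28.8% of all) and 3 neither. Some neighbouring histone genes shared a peak: H2ac12, H2bc12, H4c9, H2ac11 and H2bc11 lay by an H3K4me3 peak of 12559 bp and an H3K27ac peak of 13397 bp. Of 22 imprinted genes, 13 had H3K4me3 alone (59.1%), 8 had both (36.4%) and Mkrn3 had neither. By gene ends, 12 of 27 had H3K4me3 alone (44.4% against 24% of all), 10 both (37.04% against 52.4%) and 5 neither (18.5% against 19.7%). Peg3, expressed from the paternal copy, had H3K4me3 alone over 6031 bp, while Igf2r, expressed from the maternal copy, had both, over 8871 bp of H3K4me3 and 8295 bp of H3K27ac. The lists do not separate the parental copies.

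Where a start carried both marks, the peaks were wide. The median widest H3K4me3 peak was 6695 bp at starts with both marks and 3055 bp at starts with H3K4me3 alone. The median widest H3K27ac peak was 7600 bp at starts with both and 911 bp at starts with H3K27ac alone. The share of H3K4me3 starts that also held H3K27ac rose with each class of H3K4me3 width, from 17.3% (12.4 to 23.7) up to 500 bp to 30.1% at 1 to 2 kb, 49.2% at 2 to 5 kb, 71.8% at 5 to 10 kb and 92.2% (91.2 to 93.2) over 10 kb. At starts without H3K4me3 it was 11.8%. The share of H3K27ac starts with H3K4me3 rose from 64.1% (59.9 to 68.2) up to 500 bp to 99.05% over 10 kb. H3K27ac covered the start base itself in 81.0% of genes with both marks and in 27.2% of those with H3K27ac alone. A wide peak has more bases on which to meet a peak of the other mark, and the part of this in the rise was not tested.

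Gene length went with the state. The median length was 19858 bp for genes with both marks, 26031 bp with H3K4me3 alone, 9362 bp with H3K27ac alone and 6285 bp with neither. The 3805 genes with neither mark included 810 olfactory and 293 vomeronasal receptor genes, and the lower quartile of length in this state was 1032 bp. The part of these families in the medians was not tested.

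Some starts broke the link between width and double marking. The widest H3K4me3 peak at a start without H3K27ac was 60938 bp at Plk3, a stress-response kinase (chr4:117129705-117190642). Next came Tmem101 with 37252 bp (chr11:102155157-102192408), then Cdk5r2, an activator of Cdk5, and the ETS factor Fev, which share a peak of 33853 bp (chr1:74853119-74886971), and the lactate transporter Slc16a3 with 30424 bp (chr11:120924463-120954886). Except at Fev, H3K27ac was present within 5 kb of the start of each. The widest H3K27ac peaks at starts without H3K4me3 were at Tstd1 (39131 bp, chr1:171416765-171455895), Dnase1l2 (35221 bp, chr17:24408279-24443499), Gm51691 (31108 bp, chr9:109820866-109851973), Osbpl7 (28459 bp, chr11:97020450-97048908) and Prm1 (23419 bp, chr16:10793638-10817056). Except at Gm51691, H3K4me3 lay within 5 kb of these starts.

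Beyond the gene starts, overlapping peaks of both lists were joined into regions. Of these, 25124 held both marks (21.3%), 49225 held H3K4me3 alone (41.8%) and 43504 held H3K27ac alone (36.9%). Regions with both were wide, with a median of 6322 bp and 61.0% over 5 kb, whereas the medians were 1028 bp for H3K4me3 alone and 615 bp for H3K27ac alone, with 5.37% and 3.34% over 5 kb. Regions with both covered 227.1 Mb, H3K4me3 alone 80.3 Mb and H3K27ac alone 50.2 Mb. Most regions with both (69.1%) held 1 peak of each mark. In these, the H3K4me3 peak lay inside the H3K27ac peak in 35.6%, the H3K27ac peak inside the H3K4me3 peak in 24.1%, and the peaks were staggered in 40.2%. In the median region with both, 50.9% of the bases lay under both marks at once.

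The share of single peaks that touched the other mark was 40.7% (40.3 to 41.02) for H3K27ac and 40.8% (40.5 to 41.2) for H3K4me3, and it depended on width. H3K27ac peaks of up to 500 bp overlapped H3K4me3 in 9.94% of cases, and 9.46% of their bases lay under H3K4me3, near the 10.03% of the chromosomes that H3K4me3 covers. At widths of 2 to 5 kb it was 60.2% of peaks and 41.2% of bases, and over 10 kb 98.3% of peaks and 70.8% of bases. H3K4me3 peaks went from 12.5% of peaks and 11.8% of bases up to 500 bp to 94.6% and 78.96% over 10 kb. The narrow H3K27ac peaks were 29.1% of the list but only 2.53% of its bases.

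**Figure D4:**
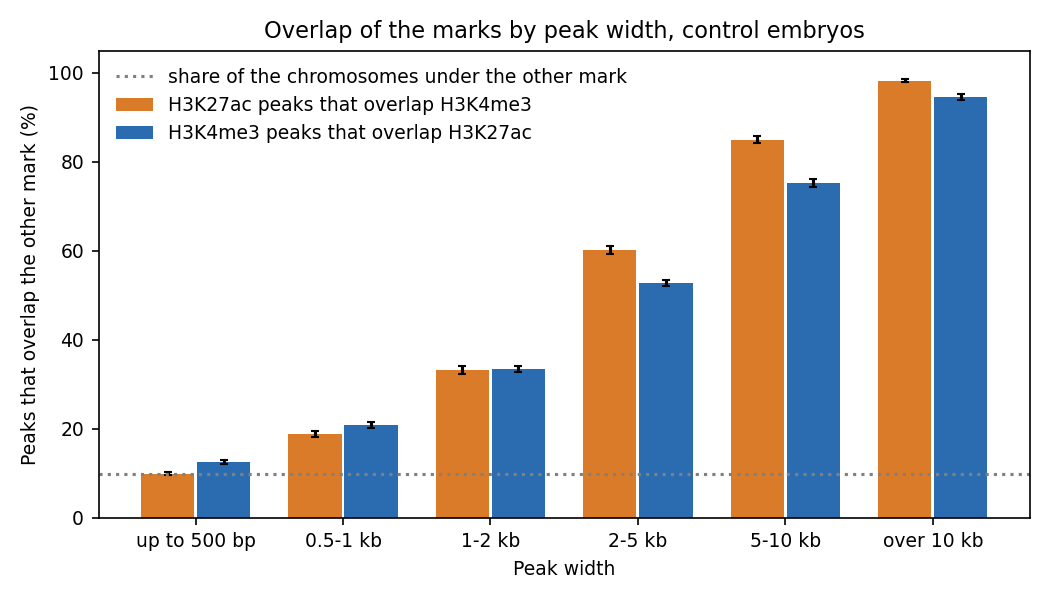
Share of peaks (vertical axis, %) of each mark that overlap a peak of the other by at least 1 bp, by width of the peak (horizontal axis), with 95% Wilson intervals for counting error. The H3K27ac and H3K4me3 shares rise from 9.94% and 12.5% at up to 500 bp to 98.3% and 94.6% over 10 kb, and the dotted line is the share of the chromosomes under the other mark, a share of bases.

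Position mattered for H3K27ac peaks at every width. Within 2 kb of a listed coding start, 89.1% (88.3 to 89.7) of H3K27ac peaks overlapped H3K4me3, and over 10 kb from one 31.6% (31.2 to 31.95) did. Peaks of up to 500 bp did so in 50.7% (46.98 to 54.5) at starts and in 7.44% (7.07 to 7.84) far from them. H3K4me3 itself was common at starts. It covered 67.7% of the start bases and 38.8% of the bases 2 kb before them, against 10.03% of the chromosomes. The part of this coverage in the shares of H3K27ac peaks was not tested. For H3K4me3 peaks the shares that overlapped H3K27ac were 56.6% at starts and 35.4% far from them. Within width classes this gap was smaller and changed direction: over 10 kb the shares were 96.6% (95.7 to 97.3) at starts and 91.4% (89.8 to 92.8) far from them, at 5 to 10 kb 73.8% and 73.6%, and at 1 to 2 kb 26.4% (24.3 to 28.6) at starts and 32.3% (31.5 to 33.1) far from them.

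The region classes lay in different parts of the genome. Of the regions with both marks, 26.1% lay within 2 kb of a coding start, 37.3% elsewhere in a coding gene and 36.5% outside coding genes. For H3K4me3 alone these shares were 10.99%, 35.6% and 53.4%, and for H3K27ac alone 1.99%, 46.8% and 51.2%. Among regions over 5 kb, the shares at starts were 32.8% for both marks, 31.3% for H3K4me3 alone and 3.20% for H3K27ac alone, and 65.0% of the wide regions with H3K27ac alone lay in the body of a coding gene. The median distance to the nearest listed coding start was 16335 bp for both marks, 49198 bp for H3K4me3 alone and 67381 bp for H3K27ac alone. Chromosome 18 had no listed start and was left out of these placements, and a start that is not listed makes such distances too long.

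The widest regions with both marks spanned several genes. The widest, chr19:7290205-7426191, was 135987 bp long, held 6 H3K27ac and 5 H3K4me3 peaks and covered Mark2, Spindoc, 2700081O15Rik and Rtn3. The next, chr15:102219199-102338361, covered Espl1, which encodes separase, the retinoic acid receptor gene Rarg, Pfdn5 and 4 other genes over 119163 bp. Among the 5 widest were also chr17:29415475-29524919, with the kinase gene Pim1 and Tmem217, and chr4:133743800-133847626, with Arid1a, a subunit of the BAF remodeller, and Rps6ka1. In these 4 regions between 82.98% and 90.4% of the bases lay under both marks.

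The widest regions with a single mark were about 20 kb long. Those with H3K4me3 alone lay beside genes: chr16:24044348-24064908 was 20561 bp long and 55482 bp from Bcl6, a transcriptional repressor, chr16:91965836-91986347 was 34206 bp from Atp5o, chr16:21231233-21250955 was 7924 bp from Ephb3, and chr5:75527056-75546385 was 28602 bp from Kit. Of the 5 widest, only chr7:127382165-127400602 overlapped genes, Zfp764 among them. All 5 widest regions with H3K27ac alone lay within a gene and held no listed start. They were chr7:49543723-49563306 (19584 bp) in Nav2, chr9:64841242-64860000 in Dennd4a, chr4:132695801-132714416 in Eya3, chr4:74310835-74329186 in Kdm4c, a demethylase of H3K9, and chr5:73177211-73194858 in Fryl.

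The promoter sequences separated starts with H3K4me3 from starts without it. Each was the 300 bases from 250 before to 50 after the first listed start, grouped by the state of that start. The median number of CpG was 21 with both marks, 18 with H3K4me3 alone, 3 with H3K27ac alone and 2 with neither. The median of observed over expected CpG was 0.77, 0.69, 0.18 and 0.16 in the same order, and the median C+G content 60.3%, 60.7%, 46.7% and 44.0%. Split into 10 groups of equal size by CpG count, the starts with both marks rose from 7.11% in the poorest group to 61.2% in the richest, and those with neither fell from 78.1% to 0.304%. Among starts with H3K4me3, however, the share that also had H3K27ac stayed between 50.6% and 65.7% in all 10 groups. H3K27ac alone was found at 8.63% of the poorest group and at 0.122% of the richest.

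**Figure D5:**
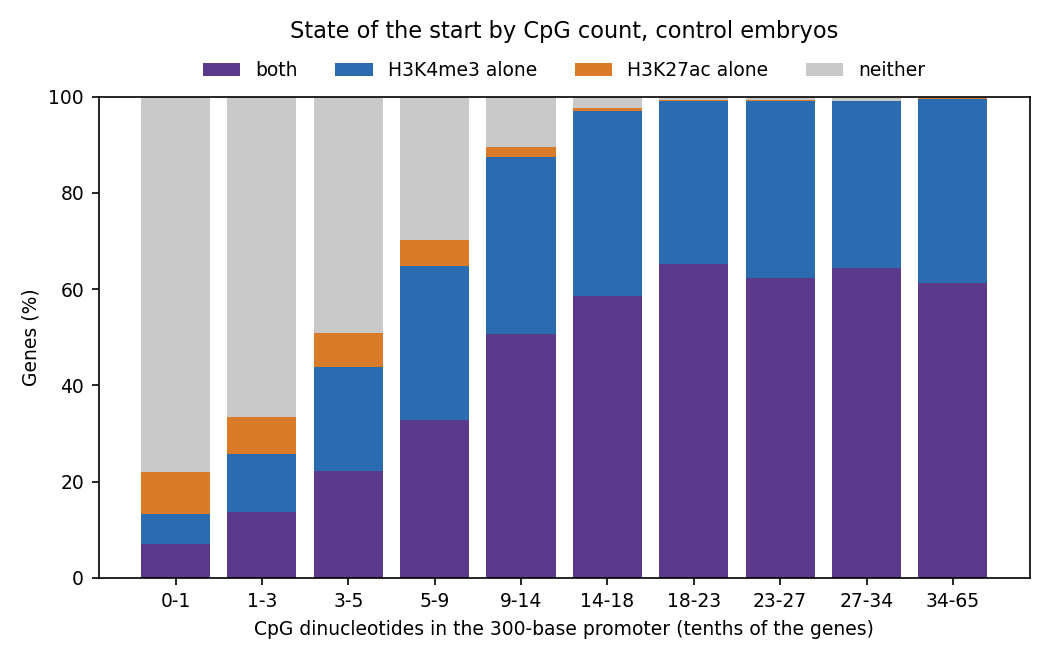
State of the first listed start (vertical axis, % of genes) in 10 groups of equal size by the number of CpG in the 300-base promoter (horizontal axis, lowest to highest count, with ties split between neighbours). Starts with H3K4me3, with or without H3K27ac, make up most of the CpG-rich groups, and starts with neither mark fall from 78.1% to 0.304%.

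Short motifs were searched on both strands of the same 300 bases. The ETS motif CCGGAAG was in 19.6% (18.7 to 20.5) of promoters with both marks, in 10.7% (9.90 to 11.7) of those with H3K4me3 alone and in 12.3% of all. In the 5 of the 10 CpG groups with the most CpG the shares were 23.8% (22.6 to 24.95) and 13.6% (12.4 to 14.9). The YY1 motif ATGGCGG was in 8.65% with both marks, 5.22% with H3K4me3 alone and 5.49% of all, and the CRE core TGACGT in 12.6%, 8.20% and 8.87%. The NRF1 motif GCATGCG gave 6.84%, 4.80% and 4.58%, and the E-box CACGTG 10.4%, 9.03% and 7.96%. In the CpG-richer groups the E-box was in 11.9% (10.998 to 12.8) with both marks and 11.3% (10.2 to 12.4) with H3K4me3 alone, a gap within the counting error. The GC box GGGCGG was at 62.05% and 60.9% for these states, and in 11.3% with H3K27ac alone and 8.52% with neither. In the 5 CpG-richer groups it was lower with both marks (75.005%, 73.8 to 76.2) than with H3K4me3 alone (80.5%, 79.1 to 81.9). The TATA box TATAAA ran the other way, with 7.26% and 8.66% in the states with H3K4me3, 23.9% with H3K27ac alone and 29.6% with neither, against 13.5% of all. In the 5 CpG-richer groups the TATA box was in 4.74% with both marks, 5.20% with H3K4me3 alone, 3 of 83 with neither (3.61%, 1.24 to 10.1) and 2 of 15 with H3K27ac alone (13.3%, 3.74 to 37.9), too few to show the contrast or its absence. The CCAAT box CCAAT lay between 37.1% and 41.03% in every state. In the CpG-richer groups it was in 37.9% (36.5 to 39.2) with both marks and 35.8% (34.1 to 37.5) with H3K4me3 alone. There it was in 19 of 83 with neither (22.9%, 15.2 to 33.0) and 6 of 15 with H3K27ac alone (40.0%, 19.8 to 64.3). The nuclear receptor motif AAGGTCA, of the type bound by Nr5a2, was in 7.82% (5.82 to 10.4) of promoters with H3K27ac alone, 6.13% with neither, 3.26% with both and 3.03% with H3K4me3 alone. In the CpG-richer groups it was in 2.34% with both marks, 1.97% with H3K4me3 alone, 1 of 83 with neither and 1 of 15 with H3K27ac alone, too few to show a contrast. The homeodomain motif GGATTA, of the type bound by Obox proteins, was in 7.44% of all promoters with H3K27ac alone, 8.77% with neither, 5.98% with both and 5.30% with H3K4me3 alone. A match is a run of letters in the window and not a measured binding site.

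Double marking went with local gene density. Starts with no other coding start within 50 kb had both marks in 32.6% of cases and H3K4me3 alone in 41.4%. With 6 or more other starts within 50 kb these shares were 59.9% and 18.2%. In 2361 windows of 1 Mb, the covered shares of the marks went together, with a Pearson correlation of 0.95 and a Spearman correlation of 0.94. Both covered shares also went with the number of coding starts in a window, so this is a description without a p-value. In windows without a coding start 36.3% of the bases under H3K27ac also carried H3K4me3, and in windows with 16 or more starts 63.5% did. The mean share of a window under H3K4me3 rose over the same classes from 2.64% to 24.3%, and the ratio of doubly marked bases to the product of the covered shares fell from 13.8 to 2.61. By chromosome the share of starts with both marks ran from 32.7% on chromosome 6 to 57.7% on chromosome 11. It did not follow gene density throughout. Chromosome 7, with the most coding genes per Mb (13.97), had both marks at 38.6% of starts, and chromosome 12, with 5.66 per Mb, at 51.2%. The doubly marked share of the bases of a chromosome did go with its gene density, with a Pearson correlation of 0.82.

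Genes that do not encode proteins differed by class. Of 9291 lncRNA genes with a listed start, 20.4% had both marks, 23.7% H3K4me3 alone, 7.17% H3K27ac alone and 48.7% neither. At the 7677 of them over 5 kb from a coding start, the shares were 15.04%, 20.2%, 8.31% and 56.4%. By gene ends, 391 tRNA genes had H3K4me3 alone in 45.5% (40.7 to 50.5) and both marks in 30.2%, against 24% and 52.4% of coding genes under the same windows. Neither mark was at 20.97% (17.2 to 25.3) of tRNA genes and at 19.7% of coding genes, and H3K27ac alone at 3.32% and 3.9%.

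The lists of the embryos that received Hdac1 mutant mRNA are a readout that the region classes did not use. Of the control regions with both marks, 69.9% held an H3K27ac peak of the mutant list, which covers 9.64% of the chromosomes, and 70.9% held an H3K4me3 peak of the mutant list, which covers 11.1%. Both mutant marks were present in 53.97% and neither in 13.1%. Of the regions with H3K4me3 alone, 36.8% held mutant H3K4me3 and 24.5% mutant H3K27ac. Of the regions with H3K27ac alone, 21.3% held mutant H3K27ac and 15.07% mutant H3K4me3. Width mattered here as well. Regions with H3K27ac alone of up to 1 kb held mutant H3K27ac in 11.9% (11.5 to 12.3) of cases, and those over 5 kb in 71.6% (69.2 to 73.8). A wider region meets any list more often, and the part of this was not tested. Among regions over 5 kb, mutant H3K4me3 was held by 81.95% (81.3 to 82.6) of those with both marks and by 85.4% (84.02 to 86.7) of those with H3K4me3 alone, so the order over all widths turned. Mutant H3K27ac was held by 82.9% of the wide regions with both marks and by 55.8% of those with H3K4me3 alone. With 1 list per group, the error of calling the same peaks again and an effect of the mutant mRNA cannot be told apart.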

How the data were processed

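Each mark was represented by 1 deposited peak list for its 2 immunoprecipitation libraries. Their columns are chromosome, start and end, so the values are genome positions, with no height, score or count, per the deposited lists. Per the submitters' processing notes, CASAVA, Trimmomatic, Bowtie2, SAMtools, Picard, MACS2 and deepTools were used with the build mm10 (GRCm38); their versions, settings and use, and whether replicates were pooled, are not given in the sources used here. The depth of the libraries is unknown.

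Starts, promoter sequences and gene positions came from RefSeq tables of GRCm38.p6. Of 20665 protein-coding genes on chromosomes 1 to 19, 16457 had a listed start (20085 starts in all); starts of the other 4208, including the 511 of chromosome 18, were not analysed here, and these genes entered only through windows at both gene ends. Computation used Python 3.11.15, numpy 2.4.6 and pandas 2.3.3, and the overlap functions were tested on simulated data. An overlap was at least 1 bp.

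The genes, the 19 gene lists and the 10 motifs were chosen with earlier results of these data known. The NRF1 and YY1 motifs were shortened, and a DUX-type motif was left out, after results with the longer forms had been seen. Named genes were a panel of 44 (28 with a listed start: 16 both, 9 H3K4me3 alone, 1 H3K27ac alone, 2 neither), the 5 widest regions of each class (1 with both marks is not reported here), the 5 starts with the widest peak of each mark alone, and members of a list in a state held by 5 or fewer; other named members are examples chosen after their values were seen. Alternatives varied the window, the start, the peak width, merging, the overlap and the chromosomes; the one with the first start alone was chosen after seeing the data.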

Additional observations from a re-analysis of the deposited data

How the results depend on the processing

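Of 101 alternative values, 77 stayed close to the reported one (counts within 1.5 times, shares within counting error) and 24 moved. Only the difference in ETS motif share between both marks and H3K4me3 alone could have changed sign, and it did not. Some close values could not have moved. These include regions with a single mark where at least 500 bp had to lie under both marks, and the ETS difference with the first start alone. Among the counts taken as close, genes with H3K27ac alone numbered 710 with a window of 5 kb and 345 without peaks under 500 bp. The number of genes with H3K27ac alone was 805 with both gene ends and 326 where at least 500 bp of the window had to be covered, against 507. With the wider 50% of each list, regions with H3K4me3 alone numbered 18525 and with H3K27ac alone 15706, 57.2% of H3K27ac and 55.5% of H3K4me3 peaks overlapped the other mark, and 79.1% of regions with both held mutant H3K27ac. Without peaks under 500 bp, these were 25183 regions with H3K27ac alone, 51.6%, 45.6% and 73.1%. With peaks less than 1 kb apart merged, the overlap shares were 38.6% and 39.2% and the share with mutant H3K27ac 70.6%. The overlap shares of H3K27ac and H3K4me3 were 30.0% and 33.3% where 50% of the peak had to be covered, 15.9% and 13.99% with a reciprocal 50%, 45.04% and 44.8% for peaks within 1 kb, and 40.03% and 40.5% with chromosomes X and Y. The share with mutant H3K27ac was 73.9% where at least 500 bp lay under both marks and 68.4% with peaks up to 1 kb apart joined. Of 38 named genes with a listed start, 37 kept their state with a window of 1 kb, 28 with 5 kb, 29 with both gene ends and 35 with the wider 50%. Gm51691 lost its mark at 1 kb. At 5 kb Nlrp5 gained H3K27ac, and Pax6, Plk3, Tmem101, Cdk5r2, Slc16a3, Tstd1, Dnase1l2, Osbpl7 and Prm1 had both marks. By gene ends Cdx2, Gata3, Pax6, Plk3, Tmem101, Cdk5r2, Slc16a3, Dnase1l2 and Osbpl7 had both. With the wider 50%, Hdac2 had H3K4me3 alone, Obox3 H3K27ac alone and Gcg neither. Other named list members were not followed one by one. No paired analysis was possible because the replicate libraries of a mark share 1 deposited list, and for the same reason no replicate could be left out. Peak height, replicate agreement and depth could not be assessed.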
